A study of Homo sapiens with 6 samples.

Results

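The pannexin, connexin, LRRC8, PIEZO1 and P2RX7 genes described here encode large-pore and volume-sensitive channels, and 10 of them were followed in U87MG cells exposed to RSL3. The 10 genes were selected on measured values, with earlier results of the comparison of RSL3-treated with control libraries known, so that difference is given as a description and carries no test. Each gene symbol was matched to its Ensembl identifier, and the 10 genes were found among 65988 identifiers, of which 16105 had enough counts to be tested. U87MG is an established human glioblastoma line, here a single wild-type line obtained from ATCC, and RSL3 is a small molecule that inhibits the lipid peroxidase GPX4 and is used to induce ferroptosis. Vehicle was given to the control group and 2 µM RSL3 to the other, each represented by 3 libraries. The treatment lasted 24 h, a time taken from a figure legend and not from the sample labels. Read pairs came from poly(A) RNA, and the values are read counts per gene, with totals between 27813462 and 43306335 counts per library. The study's methods call its samples or experiments biologically independent in general, and the sample labels do not say how the cultures behind the libraries were kept apart. The p-values measure the spread between these 6 libraries.

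Pannexins are channel proteins, among which PANX1 releases ATP and other small molecules from cells. Connexins form hemichannels and, when docked between neighbouring cells, gap junctions. LRRC8 proteins assemble into the volume-regulated anion channel, in which LRRC8A is the obligatory subunit and the partner subunits set what passes through the pore. PIEZO1 is a cation channel opened by membrane tension, and P2RX7 is a cation channel opened by extracellular ATP. In astrocytes and glioma cells these channels are known for their roles in ATP release, cell-to-cell coupling and recovery from swelling.

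PANX2 was higher after RSL3, GJA1 and P2RX7 were lower, and PANX1, GJC1, GJB2, LRRC8A, LRRC8C, LRRC8D and PIEZO1 were not called. The 95% intervals of the log2 fold changes of these 7 genes all lay between -0.36 and 0.37. A gene was called when its adjusted p was under 0.05 in edgeR's quasi-likelihood test over all genes. Of all genes tested, 25.6% were called, 12.9% as higher and 12.7% as lower in RSL3-treated cells. For 6 of the 10 genes the 3 control values and the 3 RSL3 values did not overlap, compared with 38.6% of all genes tested. Because the genes were selected with this contrast known, nothing is read from these counts. All 10 passed the filter on low counts, and the median log2 fold change was 0.01 over the 10 genes and -0.00 over all genes tested.

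**Figure D1:**
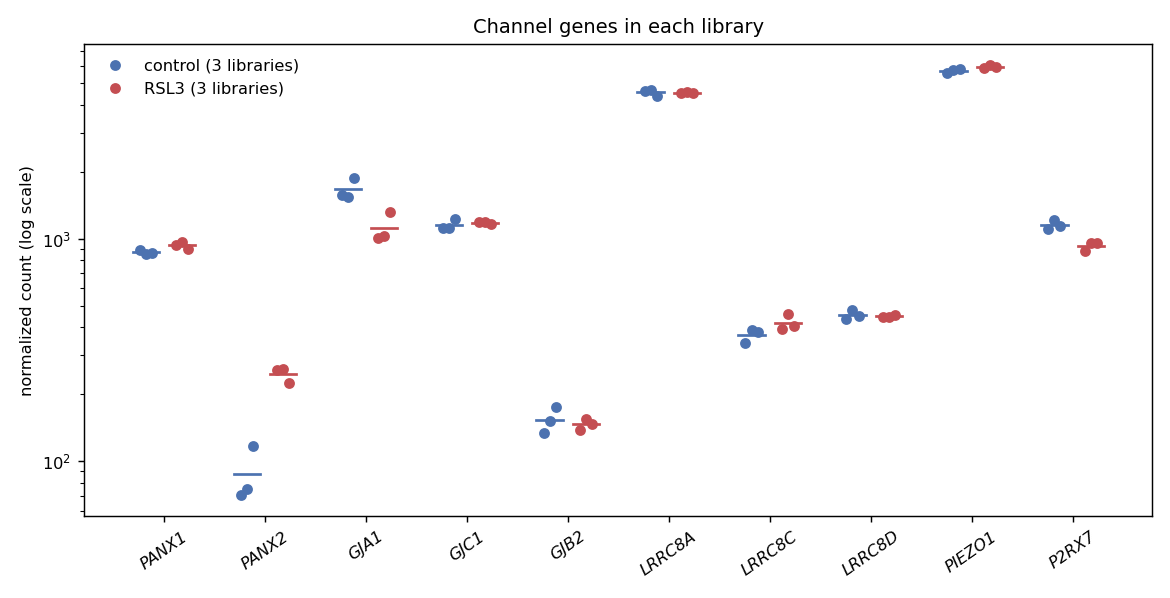
Normalized counts (vertical axis, log scale) of the 10 channel genes in each of the 3 control and 3 RSL3 libraries, with 1 point per library and a bar at the group mean. The PANX2 points of the RSL3 group lie above every control point, the GJA1 and P2RX7 points lie below, and PIEZO1 and LRRC8A hold the highest counts.

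Promoter sequence is shown for 4 of the genes, 2 of those that were called and 2 that were not, so that it can be read beside the expression values. The windows come from RefSeq (GRCh38.p14), begin 250 bases before the RefSeq start of transcription and run 5′ to 3′ on the plus strand, with matches to any of 6 searched motifs in capitals. The GJA1 window (chr6:121435396-121435604) is shown to its only match, an AP-1 site at bases -48 to -42. Its last bases, the whole AP-1 site among them, lie past the start of the GENCODE gene. The P2RX7 window (chr12:121132626-121132818) stops at the GENCODE start and holds a GC box at -64 to -59. The LRRC8A window (chr9:128881883-128882132) holds a CRE at -28 to -21 and GC boxes at -139 to -134 and -14 to -9. The PANX1 window (chr11:94128591-94128840) holds a TEAD motif at -63 to -58 and a GC box at -43 to -38.
GJA1: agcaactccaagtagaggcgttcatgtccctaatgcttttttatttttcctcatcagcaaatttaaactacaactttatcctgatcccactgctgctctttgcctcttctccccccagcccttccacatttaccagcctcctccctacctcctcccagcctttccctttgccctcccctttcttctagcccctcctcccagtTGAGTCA
P2RX7: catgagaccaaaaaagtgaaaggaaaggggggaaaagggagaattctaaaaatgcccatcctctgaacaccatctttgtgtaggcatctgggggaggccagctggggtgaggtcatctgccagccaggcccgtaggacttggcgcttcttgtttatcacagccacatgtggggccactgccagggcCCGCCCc
LRRC8A: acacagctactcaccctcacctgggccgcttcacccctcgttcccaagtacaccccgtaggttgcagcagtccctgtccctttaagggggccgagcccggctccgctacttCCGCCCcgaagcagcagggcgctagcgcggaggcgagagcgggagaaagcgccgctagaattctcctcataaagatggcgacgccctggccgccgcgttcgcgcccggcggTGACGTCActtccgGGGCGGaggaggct
PANX1: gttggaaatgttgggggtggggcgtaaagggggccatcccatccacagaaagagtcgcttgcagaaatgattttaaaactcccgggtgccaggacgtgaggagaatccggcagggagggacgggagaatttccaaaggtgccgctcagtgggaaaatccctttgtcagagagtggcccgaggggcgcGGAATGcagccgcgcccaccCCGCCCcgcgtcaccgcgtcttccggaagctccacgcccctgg

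The motifs were searched on both strands in the 250 bases before the start of 8 of the genes and of 35116 RefSeq promoters in all. PANX2, a called gene, and GJC1 had no entry among these promoters and were not searched. The AP-1 motif TGANTCA was in 6.57% of all promoters and, among the 8, in that of GJA1, at a site past the start of the GENCODE gene. The CRE motif TGACGTCA was in 1.65% of all promoters and in that of LRRC8A, and the TEAD motif GGAATG was in 11.9% and in that of PANX1. The GC box GGGCGG was in 42.6% of all promoters and in 7 of the 8, with GJA1 as the exception. The antioxidant response element TGACNNNGC, present in 10.9% of all promoters, and an ATF4 composite motif TGATGNAAT, present in 0.888%, had no match in the 8 windows. No matches in these windows overlapped each other. GC content of the windows ran from 48% in GJA1 and 53.2% in P2RX7 to 80.8% in LRRC8C and 81.2% in PIEZO1, with a median of 58% over all promoters.

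Among the pannexins, PANX2, a pannexin of long cytoplasmic tail best known from neural tissue, showed the largest difference of the 10 genes. The gene lies at chr22:50170731-50180295 on the plus strand (GENCODE v44, GRCh38). Its counts, normalized by TMM to a library of mean size, were 70.7, 75.0 and 117 in control replicates 1, 2 and 3 and 257, 259 and 226 in RSL3 replicates 1, 2 and 3. Every RSL3 library lay above every control library, and control replicate 3 was the highest of its group. The log2 fold change was 1.49 (SE 0.16, n = 3 per group), with a 95% interval from 1.15 to 1.83. By size it stood at position 32 among the 2082 genes called as higher. The values rest on raw counts of 61 to 127 in control and 224 to 249 in RSL3 libraries, and leaving out control replicate 3 moved the log2 fold change to 1.77.

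PANX1, the broadly expressed ATP-release pannexin, had the larger share of the family's RNA. Its normalized counts were 889, 854 and 864 in control and 938, 966 and 899 in RSL3 libraries. The RSL3 values were all above the control values, but the log2 fold change of 0.10 (SE 0.06) had a 95% interval from -0.02 to 0.22. PANX3, the remaining family member, had 1 count in control replicate 1 and 0 in the other libraries and was not tested. Per length of merged exons, the summed pannexin level went from 9.76 ± 0.26 to 11.9 ± 0.51 FPKM (normalized counts per kilobase of exon and 1000000 counts, mean ± SD, n = 3 per group). PANX2 made up 6.80, 7.47 and 11.1% of it in control and 20.1, 19.7 and 18.7% in RSL3 libraries, so that PANX1 remained the main pannexin in all 6. The translated coding sequences of PANX1 (426 residues) and PANX2 (677 residues) were identical at 29.2% of aligned positions.

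Of the connexins, GJA1, which encodes connexin 43, the main gap junction protein of astrocytes, carried most of the RNA. The gene lies at chr6:121435595-121449727 on the plus strand. Its normalized counts were 1572, 1540 and 1884 in control and 1009, 1030 and 1315 in RSL3 libraries. The groups did not overlap, and replicate 3 was the highest library in both. The log2 fold change was -0.57 (SE 0.08), with a 95% interval from -0.74 to -0.40, at position 318 by size among the 2041 genes called as lower. It was -0.71 without RSL3 replicate 3 and -0.47 without control replicate 3. The processed pseudogene GJA1P1, which could share reads with GJA1, had 0 to 2 counts per library.

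GJC1, which encodes connexin 45, had normalized counts of 1124, 1123 and 1225 in control and 1187, 1186 and 1163 in RSL3 libraries. These ranges overlapped, with a log2 fold change of 0.03 (SE 0.05) and a 95% interval from -0.08 to 0.13. GJB2, which encodes connexin 26, was low, at 134, 151 and 176 in control and 138, 155 and 148 in RSL3 libraries. Its log2 fold change was -0.06 (SE 0.14), and its 95% interval from -0.36 to 0.23 was the widest of the 7 uncalled genes.

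The 21 connexin genes were summed per length to place these 3 in their family. The summed level was 21.0 ± 2.15 FPKM in control and 16.3 ± 1.48 in RSL3 libraries. GJA1 made up 68.7, 67.5 and 69.4% of it in control and 57.7, 56.1 and 63.2% in RSL3 libraries. The share of GJC1 was 18.6 ± 0.92% and 24.4 ± 2.41%, and that of GJB2 was 8.68 ± 0.55% and 10.7 ± 0.91%. These shares sum to a whole, so GJC1 took a larger share while its own count stood near the control value. Of the connexins outside the 10 genes, 4 passed the filter on low counts and 6 had 0 counts in all libraries, a level that 3 counts over the 6 libraries would put at up to 0.0147 CPM, by counting error alone. None of the 4 was called by edgeR, and the log2 fold change was 0.73 for GJD3 (SE 0.31, adjusted p = 0.088), -0.50 for GJA5 (SE 0.56, adjusted p = 0.57) and 0.07 for GJB5 (SE 0.44, adjusted p = 0.94). The GJA5 value, at 2.00 to 18.1 normalized counts, was -0.01 without control replicate 1 or RSL3 replicate 3 and -1.14 without RSL3 replicate 2. GJD3 had 17.2 to 38.8 normalized counts in control and 40.5 to 49.9 in RSL3 libraries, shares 51.2% of its exon bases with other genes, and was called without control replicate 3 at a log2 fold change of 1.08. Aligned protein positions were identical at 48.9% between GJA1 (382 residues) and GJB2 (226 residues), at 40.6% between GJC1 (396 residues) and GJB2, and at 37.6% between GJA1 and GJC1.

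**Figure D2:**
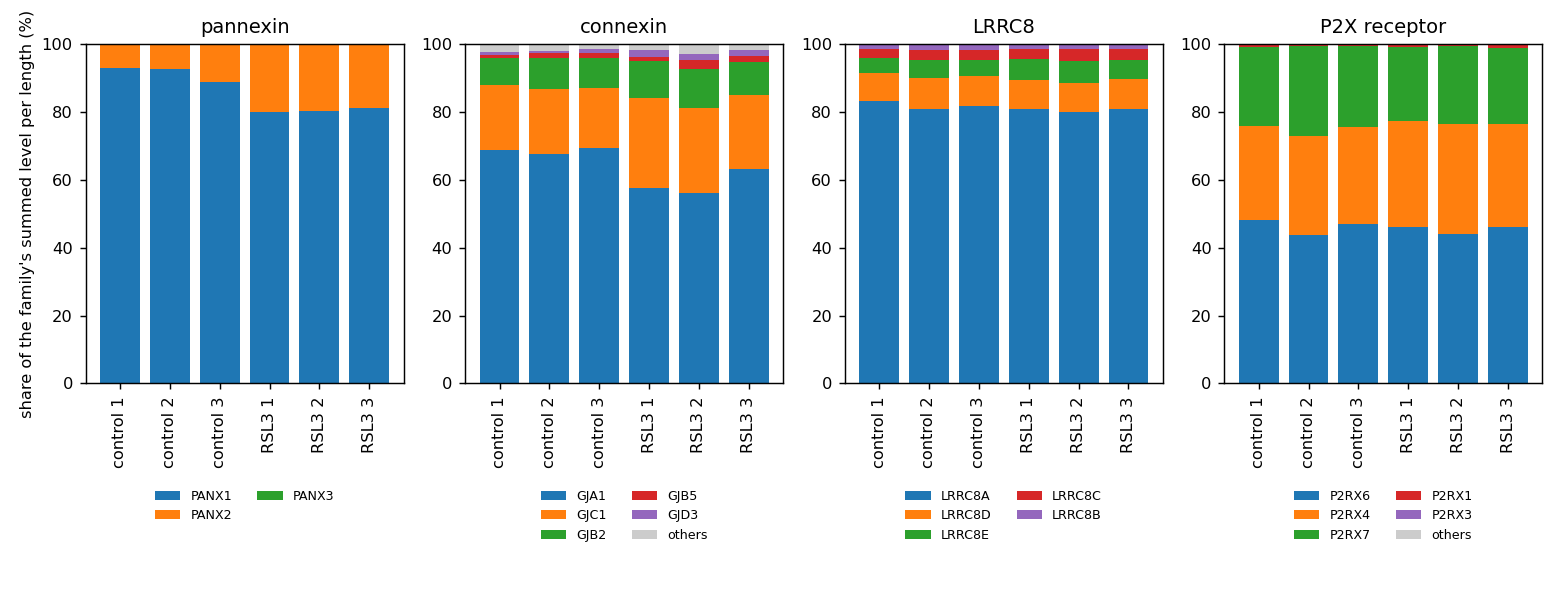
Share of each family's summed level per length (vertical axis, %) taken by its genes in each library, for the pannexins, connexins, LRRC8 genes and P2X receptors. The PANX2 share lies between 6.80 and 11.1% in control and between 18.7 and 20.1% in RSL3 libraries, the GJA1 share is lower in RSL3 libraries, and the LRRC8A share averages 81.9% in control and 80.6% in RSL3 libraries.

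None of the 3 volume-regulated anion channel genes among the 10 was called by edgeR. LRRC8A, the obligatory subunit, at chr9:128882133-128918039 on the plus strand, had normalized counts of 4625, 4686 and 4395 in control and 4497, 4585 and 4512 in RSL3 libraries. The RSL3 values lay inside the control range, and the log2 fold change of -0.01 (SE 0.03) had a 95% interval from -0.08 to 0.06. LRRC8D, a partner subunit known for letting larger organic solutes and some drugs through, had 434, 481 and 448 in control and 447, 445 and 454 in RSL3 libraries, with a log2 fold change of -0.01 (SE 0.08) and an interval from -0.18 to 0.15. LRRC8C, another partner subunit, had 341, 390 and 383 in control and 393, 460 and 404 in RSL3 libraries. Its groups did not overlap, although the highest control value was close to the lowest RSL3 value, and its log2 fold change of 0.18 (SE 0.09) had an interval from -0.01 to 0.37.

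The 2 LRRC8 genes outside the 10 complete the family, and they differed from each other in the test. LRRC8E, a partner subunit, rose from 204, 261 and 205 to 277, 307 and 272 normalized counts, a log2 fold change of 0.37 (SE 0.12, edgeR adjusted p = 0.025). It shares 74.3% of its exon bases with a long noncoding RNA gene on the other strand, which unstranded counting cannot tell apart. The call was lost without control replicate 1 (0.30), control replicate 3 (0.32) or RSL3 replicate 2 (0.31). LRRC8B had a log2 fold change of -0.11 (SE 0.15, adjusted p = 0.65). The summed LRRC8 level was 31.4 ± 1.14 FPKM in control and 31.6 ± 0.51 in RSL3 libraries. LRRC8A made up 81.9 ± 1.10% of it in control and 80.6 ± 0.46% in RSL3 libraries, followed in control by LRRC8D (8.74%), LRRC8E (4.81%), LRRC8C (2.96%) and LRRC8B (1.58%). These levels divide by all exon bases, shared ones included, so the share of LRRC8E and its place in this order are uncertain. The 5 proteins, of 796 to 858 residues, were identical at 47.8 to 62.8% of aligned positions, with LRRC8C and LRRC8E the closest pair.

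PIEZO1, at chr16:88715338-88785220 on the minus strand, had the highest count of the 10 genes, with 5578, 5713 and 5801 normalized counts in control and 5867, 6010 and 5918 in RSL3 libraries. The RSL3 values were all above the control values, although the log2 fold change was 0.06 (SE 0.03) with a 95% interval from -0.01 to 0.12. By GENCODE v44, 20.3% of its exon bases are shared with CTU2 and 3 long noncoding RNA genes, and CTU2 had 318 to 370 normalized counts. PIEZO2, the paralogue known from sensory neurons, had 1 count in all 6 libraries together, so that PIEZO1 made up nearly all of the summed PIEZO level in both groups.

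P2RX7, the ATP-gated channel, lies at chr12:121132819-121188032 on the plus strand. It had normalized counts of 1102, 1219 and 1141 in control and 879, 953 and 953 in RSL3 libraries. The groups did not overlap, and the log2 fold change was -0.31 (SE 0.06) with a 95% interval from -0.43 to -0.19, at position 805 by size among the genes called as lower. By GENCODE v44, 33.0% of its exon bases also belong to another gene that is not among the identifiers counted. Among the other P2X receptors, P2RX6 fell from 1551, 1363 and 1541 to 1277, 1246 and 1339 normalized counts, a log2 fold change of -0.21 (SE 0.05, edgeR adjusted p = 0.0056). P2RX4, a receptor of endosomes and lysosomes as well as the cell surface, had a log2 fold change of -0.05 (SE 0.04, adjusted p = 0.44), and P2RX1 had one of -0.15 (SE 0.44, adjusted p = 0.86) at 6.23 to 21.2 normalized counts. The summed P2X level was 24.8 ± 0.61 FPKM in control and 21.9 ± 0.54 in RSL3 libraries. P2RX6 made up 46.2 ± 2.30% of it in control and 45.5 ± 1.14% in RSL3 libraries, and P2RX4 28.5 ± 0.64% and 31.3 ± 0.86%. The share of P2RX7 in it was smaller, at 24.6 ± 1.81% and 22.4 ± 0.68%, and the lowest control value, 23.3%, lay just above the highest RSL3 value, 23.1%.

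**Figure D3:**
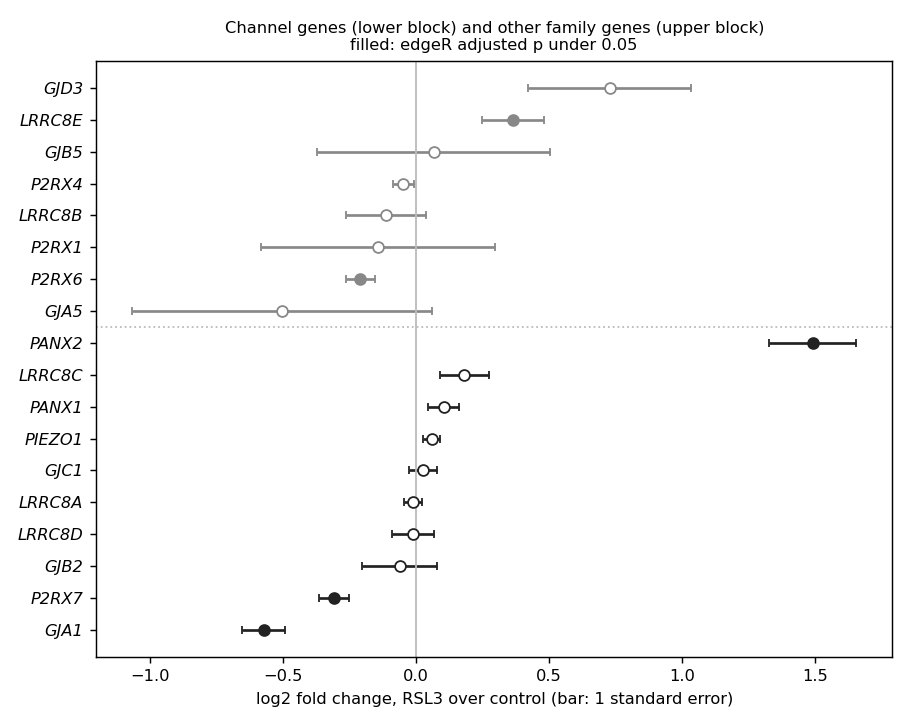
Log2 fold change of RSL3 over control (horizontal axis, bar of 1 standard error, n = 3 libraries per group) for the 10 channel genes in the lower block and 8 other tested genes of the same families in the upper block, with filled points where the edgeR adjusted p is under 0.05. PANX2 at 1.49 lies apart from the other genes, GJA1 and P2RX7 lie to the left of 0, and LRRC8E and P2RX6 are the 2 filled points of the upper block.

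Per length, the 10 genes spanned a wide range in control cells. LRRC8A was highest at 25.7 ± 0.86 FPKM, followed by PIEZO1 at 14.8 ± 0.29, GJA1 at 14.4 ± 1.64 and PANX1 at 8.93 ± 0.19. P2RX7 (6.10 ± 0.32), GJC1 (3.89 ± 0.20), LRRC8D (2.74 ± 0.15) and GJB2 (1.82 ± 0.25) came next, and LRRC8C (0.928 ± 0.066) and PANX2 (0.828 ± 0.244) were lowest. The ranges of PIEZO1 and GJA1 overlapped, as did those of LRRC8C and PANX2, and the other neighbours in this order were separate. The length used for PIEZO1 includes the 20.3% of its exon bases shared with other genes. Its level and its overlap with GJA1 may depend on how reads there were counted. In RSL3 libraries GJA1 stood at 9.65 ± 1.47 beside PANX1 at 9.60 ± 0.34, the only overlapping neighbours there, and PANX2 at 2.34 ± 0.18 stood above GJB2 and LRRC8C. With the length of 1 transcript per gene the control order was the same and no neighbours overlapped.

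The library patterns nearest to PANX2, by Euclidean distance of centred log2 normalized counts over the 6 libraries among 11463 genes with a mean of at least 100, were those of IP6K3 (0.486), SPX (0.542) and IL23A (0.589). The nearest to GJA1 were SPARC (0.116), C5AR2 (0.126) and TENT5A (0.138). SPARC, a secreted matrix-binding protein, had 4462, 4517 and 5110 normalized counts in control and 2938, 2867 and 3535 in RSL3 libraries. It thus shared with GJA1 both the lower RSL3 values and the higher replicate 3 in each group, features by which these genes were picked.

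Beside the 10 genes, 8 lists of other family members and of genes of related function held 175 genes, of which 115 were tested, 28 rose and 24 fell. LRRC8E and P2RX6, given above, are among those called. The share called was 45.2%, beside 25.6% of all genes tested, and the median normalized count was 1294 on the lists and 572 over all genes. The lists leave out the 10 genes, were chosen with earlier results known, and carry no test of their own. The part of expression level in the share called was not tested.

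Anion channels outside the 10 genes, LRRC8B and LRRC8E included, gave 8 genes that rose and 2 that fell of 20 tested, with a median log2 fold change of 0.10. PACC1, the proton-activated chloride channel, had 877 to 958 normalized counts in control and 1222 to 1488 in RSL3 libraries and rose by 0.55 on the log2 scale (SE 0.06, edgeR adjusted p = 1.3e-06). ANO5 of the anoctamin family rose by 0.40 (SE 0.06, adjusted p = 4.1e-05). The lysosomal chloride/proton exchanger CLCN7, the anoctamin ANO10 and TTYH3 rose by 0.18, 0.18 and 0.16. The scramblase ANO6 was not called at -0.03 (SE 0.03, adjusted p = 0.64) and is named after its value was seen. CLIC1, on the same list, stood at 0 to 2.1 normalized counts and was not tested. Counts this low do not show that the gene was silent, and their cause was not tested.

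Purinergic signalling genes moved both ways. Of 8 other purinergic receptors tested, 1 rose and 2 fell, with a median of -0.11. The adenosine receptor gene ADORA2B had 1754 to 1963 normalized counts in control and 2391 to 2544 in RSL3 libraries and rose by 0.42 on the log2 scale (SE 0.04, adjusted p = 4.1e-07), while ADORA1 fell by 0.48 (SE 0.14, adjusted p = 0.012) and was not called without RSL3 replicate 2 (-0.37). Of 12 genes of nucleotide and adenosine handling, 2 rose and 2 fell, with a median of -0.14. ENPP2, which encodes autotaxin, rose by 0.52 (SE 0.04, adjusted p = 5.3e-09), and ADK, the adenosine kinase gene, rose by 0.26 (SE 0.04, adjusted p = 9.3e-05). DPP4, a cell-surface peptidase that binds adenosine deaminase, fell by 0.59 (SE 0.05, adjusted p = 6.5e-09). ENTPD3, an ectonucleotidase gene, fell by 1.20 (SE 0.40, adjusted p = 0.030) at 5.99 to 35.4 normalized counts, and 4 of the 6 fits that left out a library did not call it, namely those without control replicate 1 (-1.05), control replicate 3 (-1.23), RSL3 replicate 1 (-1.18) and RSL3 replicate 3 (-0.84).

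Of 14 tested genes on the list of other mechanosensitive and related channels and their partners, 2 rose and 3 fell, with a median of 0.04. PKD2, which encodes polycystin 2, had 3243 to 3366 normalized counts in control and 2667 to 2841 in RSL3 libraries and fell by 0.28 on the log2 scale (SE 0.04, adjusted p = 9.1e-06). TMEM63B, an osmosensitive channel gene, fell by 0.19 (SE 0.04, adjusted p = 0.00049), and MDFIC, whose product binds PIEZO channels, fell by 0.18 (SE 0.04, adjusted p = 0.0021). TMC6 rose by 1.86 (SE 0.43, adjusted p = 0.0028) at raw counts of 4 to 34. The calcium-activated cation channel gene TRPM4 rose by 0.20 (SE 0.06, adjusted p = 0.012), a call that was lost without control replicate 3 (0.18), RSL3 replicate 1 (0.19) or RSL3 replicate 2 (0.19).

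Of 21 genes of ion and osmolyte transport in volume regulation, 7 rose and 4 fell, with a median of 0.03. AQP9, an aquaglyceroporin that passes water, glycerol and other small solutes, fell from 1836, 1712 and 2041 to 772, 719 and 971 normalized counts, a log2 fold change of -1.18 (SE 0.08, adjusted p = 6.8e-10). SLC6A6, the transporter of the osmolyte taurine, rose from 6077, 6569 and 6389 to 8361, 8412 and 8299, a log2 fold change of 0.40 (SE 0.03, adjusted p = 1.0e-08). AKR1B1, the aldose reductase that makes sorbitol, fell by 0.23 (SE 0.03, adjusted p = 7.5e-07). The calcium-activated potassium channel gene KCNN4 fell by 0.30 (SE 0.06, adjusted p = 0.0012).

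Of 19 genes of gap junction partners and turnover, 6 rose and 7 fell, with a median of 0.04. CAV1, the main protein of caveolae, fell from 9862, 9766 and 9914 to 6562, 6546 and 6790 normalized counts, a log2 fold change of -0.57 (SE 0.03, adjusted p = 2.3e-11). The tyrosine kinase gene SRC, whose product phosphorylates connexin 43, rose by 0.53 (SE 0.04, adjusted p = 1.7e-09). EZR, an actin-membrane linker, rose by 0.43 and the actin-binding drebrin gene DBN1 rose by 0.34 (SE 0.05 and 0.04). TJP1, the scaffold that binds the connexin 43 tail, was not called at 0.06 (SE 0.11, adjusted p = 0.75) and is named after its value was seen.

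Of 17 genes of plasma membrane rupture and inflammasomes, 2 rose and 4 fell, with a median of -0.03. IL1B, a cytokine whose release P2RX7 is known to trigger, rose from 2160, 2119 and 2493 to 3325, 3288 and 4249 normalized counts, a log2 fold change of 0.68 (SE 0.07, adjusted p = 4.3e-07). CASP1, the protease that matures this cytokine, fell by 0.48 (SE 0.09, adjusted p = 0.00043). The pore-forming gasdermin gene GSDME fell by 0.25 (SE 0.03, adjusted p = 1.8e-06), the scramblase gene XKR8 by 0.24 (SE 0.05) and CASP4 by 0.16 (SE 0.04). NINJ1, whose product ruptures the plasma membrane of dying cells, was not called at 0.02 (SE 0.04, adjusted p = 0.74) and is named after its value was seen.

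**Figure D4:**
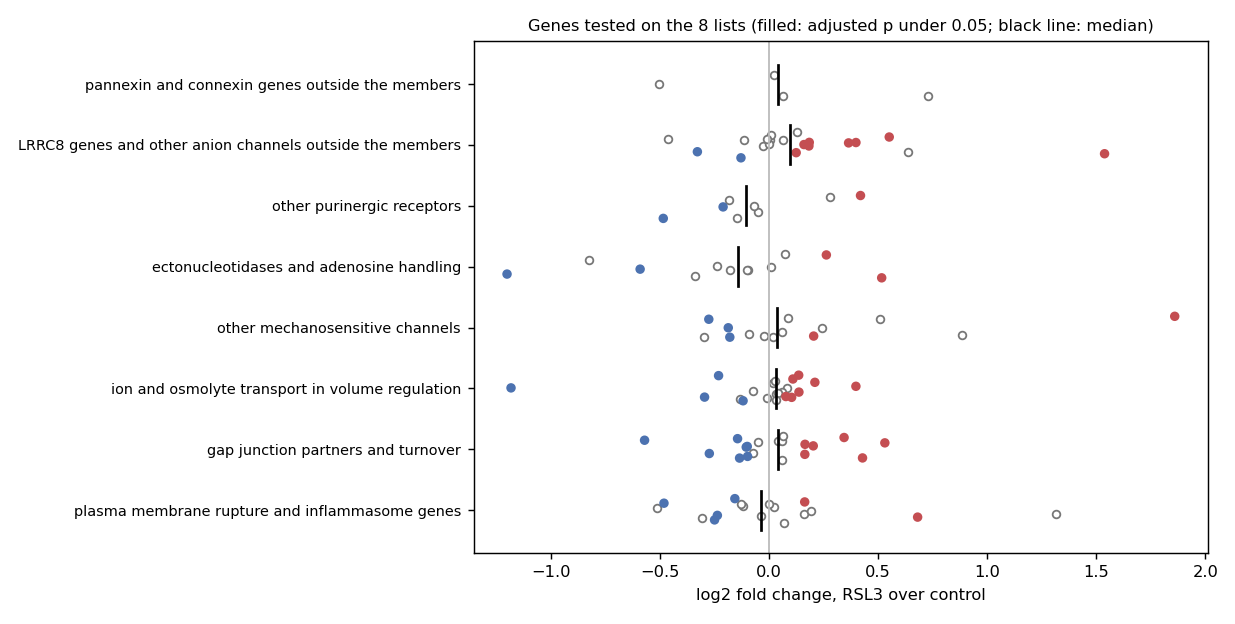
Log2 fold change of RSL3 over control (horizontal axis) of each tested gene on the 8 lists, with 1 row per list, filled points where the edgeR adjusted p is under 0.05 and a black line at the list's median. Each median lies between -0.14 and 0.10, and each list except that of pannexins and connexins holds filled points on both sides of 0.

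The libraries were of 1 cell line, and in bulk RNA fewer cells of a kind and less RNA per cell cannot be told apart. Of 10 glioma and astrocyte markers, 8 were tested. The list's summed normalized counts were 145257 to 147340 in control and 130290 to 135575 in RSL3 libraries. Most of each sum came from VIM, TNC and CD44. GFAP (95.1 to 160 normalized counts) and NES (148 to 210) were low, and S100B and SOX2, at 0 to 2 raw counts, were not tested. Within that list VIM (-0.29), CD44 (-0.39) and CHI3L1 (-0.56) fell and TNC rose by 0.21, alongside the lower GJA1 values, and their part in that result was not tested. Of 10 microglial and macrophage markers, 3 were tested and none was called by edgeR, AIF1 had 0 counts in all libraries, and the summed count was 395 to 438 in control and 326 to 378 in RSL3 libraries. Of 6 neuronal markers 3 were tested, SNAP25 fell by 1.04 and SYT1 rose by 0.24 on the log2 scale, and the summed count was 1202 to 1330 in control and 1326 to 1374 in RSL3 libraries. Of 5 oligodendrocyte markers 2 were tested, MBP rose by 0.71, and the summed count was 3174 to 3349 in control and 3240 to 3361 in RSL3 libraries. The 1 of 5 endothelial markers that was tested, VWF, fell by 1.33, and the summed count of that list was 70.7 to 104 in control and 33.2 to 55.9 in RSL3 libraries. The part of these markers in the channel gene values was not tested.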

How the data were processed

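The deposited tables hold unnormalized whole-number read counts for each Ensembl gene identifier, from 3 control and 3 RSL3 libraries with 27813462 to 43306335 counts each. The authors trimmed read pairs (Trimmomatic 0.36, Fastp), used HISAT2 with GRCh38.p4 for alignment and HTSeq 0.6.1p1 to count exons on either strand; the release of the annotation is not given in the sources used here. The tool versions come from the submitters' processing notes. Unstranded counting gives bases shared by overlapping genes no single owner, and overlaps were taken from GENCODE v44, which describes these counts only as far as the exons are the same.

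Counts were analysed here in R 4.3.3 with edgeR 4.0.16: filterByExpr with a minimum count of 10, TMM factors (0.995 to 1.01), the quasi-likelihood F test without covariates, Benjamini-Hochberg adjustment over 16105 genes and a threshold of 0.05. Normalized counts are TMM-scaled to the mean library size, and levels per length (FPKM) divide them by kilobases of merged GENCODE v44 exons and scale to 1000000 counts. The code was tested on simulated counts with known changes. Motifs and protein identities (BLOSUM62 alignment of translated GENCODE transcripts) were computed with Biopython 1.88. The 10 genes and the 8 lists were chosen with earlier results of these data known. The genes named are the 10, tested genes of their families, up to 5 genes with the smallest p per list, and the 3 genes nearest to PANX2 and to GJA1; ANO6, CLIC1, TJP1, NINJ1, single cell type markers, untested family genes and genes that overlap or copy a channel gene were added after their values were seen. Some genes that the rule names are not reported here. Alternatives were other scalings and filters, DESeq2 1.42.0 without and with 1 surrogate variable (sva 3.50.0), the replicate number as a block, 1 transcript length per gene, and each library left out.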

Additional observations from a re-analysis of the deposited data

How the results depend on the processing

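PANX2, GJA1 and P2RX7 were called in the same direction under all 13 alternatives, and none of the other 7 channel genes was called under any of them. Without 1 library the log2 fold change ranged from 1.33 to 1.77 for PANX2, from -0.71 to -0.47 for GJA1 and from -0.34 to -0.27 for P2RX7. Over all genes 4123 were called, 3707 with DESeq2, 3351 with DESeq2 and 1 surrogate variable, 3980 to 4150 under the other scalings and filters, and 3081 to 3924 without 1 library. Each list call named in the text was kept under every alternative that gave it an adjusted p, except those of LRRC8E, ADORA1, ENTPD3 and TRPM4 without single libraries; DESeq2 gave no adjusted p for ENTPD3 and TMC6. With 1 transcript length per gene, 0 of the neighbouring control levels overlapped, beside 2 with merged exons, and 0 to 2 overlapped without 1 control library. Uncalled values near 0 changed sign without 1 library, with ranges of -0.16 to 0.05 for GJB2, -0.04 to 0.01 for LRRC8A, -0.05 to 0.03 for LRRC8D, -0.19 to 0.35 for GJB5 and -0.37 to 0.23 for P2RX1, and GJA5 ranged from -1.14 to -0.01.

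The sample labels do not say whether equal replicate numbers mark paired libraries. Deviations of same-numbered libraries correlated weakly, at 0.022, 0.027 and 0.074, and 5 of the 6 libraries correlated best with their own number. With the number as a replicate block 4633 genes were called, beside 4123 without it, the same 3 channel genes among them. With the block the SE went from 0.082 to 0.045 for GJA1, from 0.057 to 0.052 for P2RX7 and from 0.164 to 0.162 for PANX2.

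Counts of 61 to 127 in control libraries limit the precision of PANX2, and connexins and cell type markers at 0 counts are not shown to be absent. The causes of the differences were not tested.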
